A study of Mus musculus with 25 samples.

Results

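The genes described here are 33 known direct targets of the transcription factor p53, out of 24537 genes counted in livers of old mice. They were taken by symbol from a fixed list of known targets from which Cdkn1a and Mdm2, a cyclin-dependent kinase inhibitor and the main inhibitor of p53, had been left out. Livers of 24-month-old male C57BL6/J mice were sequenced as polyA RNA in 4 groups. HFD_p53KO (n = 7) carried a p53 knockout and received a high-fat diet (HFD), HFD_Rosa26KO (n = 6) carried a knockout labelled with the Rosa26 locus, a safe-harbour site used as a control, and received the same diet, and Control_p53KO (n = 6) and Control_Rosa26KO (n = 6) were the corresponding genotypes on the control diet. Every group therefore carried a knockout, and none was untouched wild type. How the knockouts were made, in which liver cells and from what age is not given in the sources used here. Each library is treated as a separate mouse, which the labels do not state, so p-values measure the spread between these samples.

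p53 is kept at a low level in unstressed cells by ubiquitination through Mdm2 and accumulates after DNA damage, oncogene activity or metabolic stress. It then binds response elements near its targets and raises their transcription. The products slow the cell cycle, sense metabolic stress, repair DNA, and sensitise the cell to death through the mitochondrial and the death receptor routes. In the liver p53 is also known for roles in lipid and glucose metabolism and in the response of hepatocytes to fat overload. The question of interest here is which of these targets differed with the Trp53 genotype and which rose on HFD in its absence.

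Total counts per library ran from 16324283 to 21501281, and 14133 genes had enough counts to be tested, all 33 members included. Levels are given as CPM, read counts scaled to library size with TMM factors, and differences as log2 fold changes from edgeR's quasi-likelihood test with their standard error (SE). A gene was called where its p adjusted by Benjamini-Hochberg over all 14133 genes was under 0.05. The targeted gene itself, Trp53, was read at 19.6 to 31.0 CPM in HFD_p53KO (median 26.1) against 30.6 to 43.8 CPM in HFD_Rosa26KO (median 37.2), and at 17.2 to 35.6 CPM in Control_p53KO (median 23.3) against 31.6 to 43.7 CPM in Control_Rosa26KO (median 35.7). Trp53 was lower in p53KO by -0.56 ± 0.10 (log2, SE) over both diets, with an unadjusted edgeR p of 1.48e-05. After adjustment over all genes this missed the threshold (edgeR adjusted p = 0.210), and every p53KO library kept Trp53 reads. Counts per whole gene do not show which exons were removed or which cells kept the transcript. The 10 hepatocyte markers summed to 53843 to 167740 CPM and none was at 0 in any group. In whole tissue, fewer cells of a type and less RNA per cell cannot be told apart.

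Within the livers of Control_Rosa26KO, the members spanned a wide range of levels per kilobase of exon. Rps27l (110 CPM per kb), Perp (48.4 CPM per kb) and Ei24 (45.2 CPM per kb) were the most abundant. Trp53cor1 (0.133 CPM per kb), Tnfrsf10b (0.233 CPM per kb) and Eda2r (0.246 CPM per kb) were the scarcest, so that the members with the greatest log2 differences below rest on few reads. Exons of Bax, Ddb2, Ei24, Plk3, Rrm2b and Trp53cor1 overlap those of another annotated gene in GENCODE M21, and because the strand of counting is not given, reads of these pairs could not be separated.

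RefSeq promoter windows (GRCm38.p6, 250 bases before to 50 bases after the start) were found for 23 of the 33 members and searched on both strands for the p53 response element consensus, a pair of motifs of 10 letters with at most 1 base between them, allowing 3 mismatches in 20 letters outside the fixed C and G of each motif. A match was present for 6 of the 23 members (Ccng1, Rps27l, Bax, Aen, Bbc3 and Sesn1), and for 3.27% of the 27025 genes with a window. A match is a description of these letters and not a measured binding site. The 4 windows below are shown because Ccng1 and Aen rose on HFD, Bax had one of the smallest unadjusted genotype p-values, and Rps27l carries a match as close as that of Ccng1 without being called in any comparison. Capitals mark the matched element, and each window is written 5′ to 3′ on the strand of its gene. The Ccng1 window is chr11:40755237-40755536 on the minus strand with 1 mismatch, that of Bax chr7:45466849-45467148 on the minus strand with 2 mismatches, that of Aen chr7:78895677-78895976 on the plus strand with 3 mismatches and that of Rps27l chr9:66946163-66946462 on the plus strand with 1 mismatch.
Ccng1: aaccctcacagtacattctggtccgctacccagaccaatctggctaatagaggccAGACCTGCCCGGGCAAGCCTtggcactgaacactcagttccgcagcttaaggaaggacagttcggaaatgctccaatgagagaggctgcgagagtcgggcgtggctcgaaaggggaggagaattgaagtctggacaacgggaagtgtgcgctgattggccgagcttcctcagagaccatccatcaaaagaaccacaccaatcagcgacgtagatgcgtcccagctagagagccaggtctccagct
Bax: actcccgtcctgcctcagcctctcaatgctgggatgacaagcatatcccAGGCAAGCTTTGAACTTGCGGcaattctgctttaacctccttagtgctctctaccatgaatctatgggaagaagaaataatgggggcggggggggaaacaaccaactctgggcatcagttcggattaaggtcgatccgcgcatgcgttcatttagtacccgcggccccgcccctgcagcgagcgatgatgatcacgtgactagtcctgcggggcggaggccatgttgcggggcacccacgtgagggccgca
Aen: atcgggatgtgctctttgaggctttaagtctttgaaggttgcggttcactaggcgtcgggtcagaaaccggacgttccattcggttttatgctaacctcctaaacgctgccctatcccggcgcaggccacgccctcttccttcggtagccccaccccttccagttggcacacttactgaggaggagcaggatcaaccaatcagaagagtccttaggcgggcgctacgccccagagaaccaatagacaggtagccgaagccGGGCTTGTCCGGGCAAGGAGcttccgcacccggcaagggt
Rps27l: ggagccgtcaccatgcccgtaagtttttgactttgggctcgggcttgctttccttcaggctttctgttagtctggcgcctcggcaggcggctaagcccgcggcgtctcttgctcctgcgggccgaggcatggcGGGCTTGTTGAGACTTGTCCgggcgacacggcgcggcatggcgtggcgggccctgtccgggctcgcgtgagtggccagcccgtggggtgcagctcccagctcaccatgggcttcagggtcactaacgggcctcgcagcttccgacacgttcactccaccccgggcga

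Between genotypes, no member passed the threshold, and no gene of the 14133 tested did (0%) in either diet or in their average. At an unadjusted edgeR p under 0.05 stood 509 genes on HFD, 1408 on the control diet and 573 in the average, and DESeq2 called 1, 1 and 4 genes, none of them a member. On the control diet 24 of the 33 members were lower in p53KO than in Rosa26KO (48.1% of all genes), with a median log2 fold change of -0.18 for the members and 0.01 for all genes. At an unadjusted edgeR p under 0.05 stood 10 members, 8 of them lower (4.12% of all genes) and 2 higher (5.84% of all genes). On HFD 25 members were lower (47.2% of all genes), with a median of -0.16 against 0.01 for all genes, and none of them had an unadjusted p under 0.05 (3.6% of all genes). Averaged over both diets 24 members were lower (46.7% of all genes), with a median of -0.15, and 9 members had an unadjusted p under 0.05, all of them lower (1.69% of all genes). DESeq2 and limma voom also called no member between genotypes. At an unadjusted p under 0.05, DESeq2 had 1 member on HFD, 11 on the control diet and 9 in the average. Among all genes it had 650, 1669 and 731 (19492 genes tested). The limma voom fit had 7, 5 and 9 members, and 1171, 805 and 972 of the 14133 genes.

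The diet comparisons gave calls. Of the 33 members, 4 rose on HFD in p53KO livers (2.87% of all genes were called, 1.62% as higher), namely Eda2r, Sesn2, Abhd4 and Ccng1. In this comparison 26 members lay above 0 (45.9% of all genes), and 12 were higher at an unadjusted edgeR p under 0.05 (9.05% of all genes). In Rosa26KO livers no member was called (1.51% of all genes were called, 0.446% as higher), while 8 members had an unadjusted edgeR p under 0.05, all of them higher (7.55% of all genes), and 30 lay above 0 (50.6% of all genes). DESeq2 called 2 members in that comparison (3.97% of all genes) and limma voom 14 (21.5% of all genes). Averaged over both genotypes, 8 members rose (9.71% of all genes were called, 4.64% as higher): Sesn2, Eda2r, Abhd4, Ccng1, Zmat3, Aen, Trp53cor1 and Xpc. In this average 29 members lay above 0 (47.6% of all genes), and 16 were higher at an unadjusted edgeR p under 0.05 (11.1% of all genes). No member fell on HFD, where 1.25% of all genes fell in p53KO, 1.06% in Rosa26KO and 5.07% in the average. The median log2 fold change of the members was 0.23 in p53KO and 0.30 in Rosa26KO, against -0.02 and 0.00 for all genes. Group medians of several marker sums lay apart between the diets, with ranges that overlapped. The sum of 6 B cell markers had medians of 20.1 CPM in HFD_p53KO against 43.8 CPM in Control_p53KO. In Rosa26KO they were 20.7 CPM on HFD against 36.0 CPM on the control diet. The sum of 10 cell cycle markers had medians of 43.1 against 38.7 CPM in p53KO and 61.7 against 19.9 CPM in Rosa26KO. The sum of 10 hepatocyte markers had medians of 74427 CPM in HFD_p53KO against 139523 CPM in Control_p53KO, and of 92548 CPM in HFD_Rosa26KO against 148809 CPM in Control_Rosa26KO. The sum of 6 cholangiocyte markers had medians of 271 CPM in HFD_p53KO against 120.4 CPM in Control_p53KO, and of 233 CPM in HFD_Rosa26KO against 129.997 CPM in Control_Rosa26KO. The part of these markers in the diet differences of the members was not tested. These comparisons share libraries pairwise, since each group serves in a genotype and in a diet comparison.

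**Figure D1:**
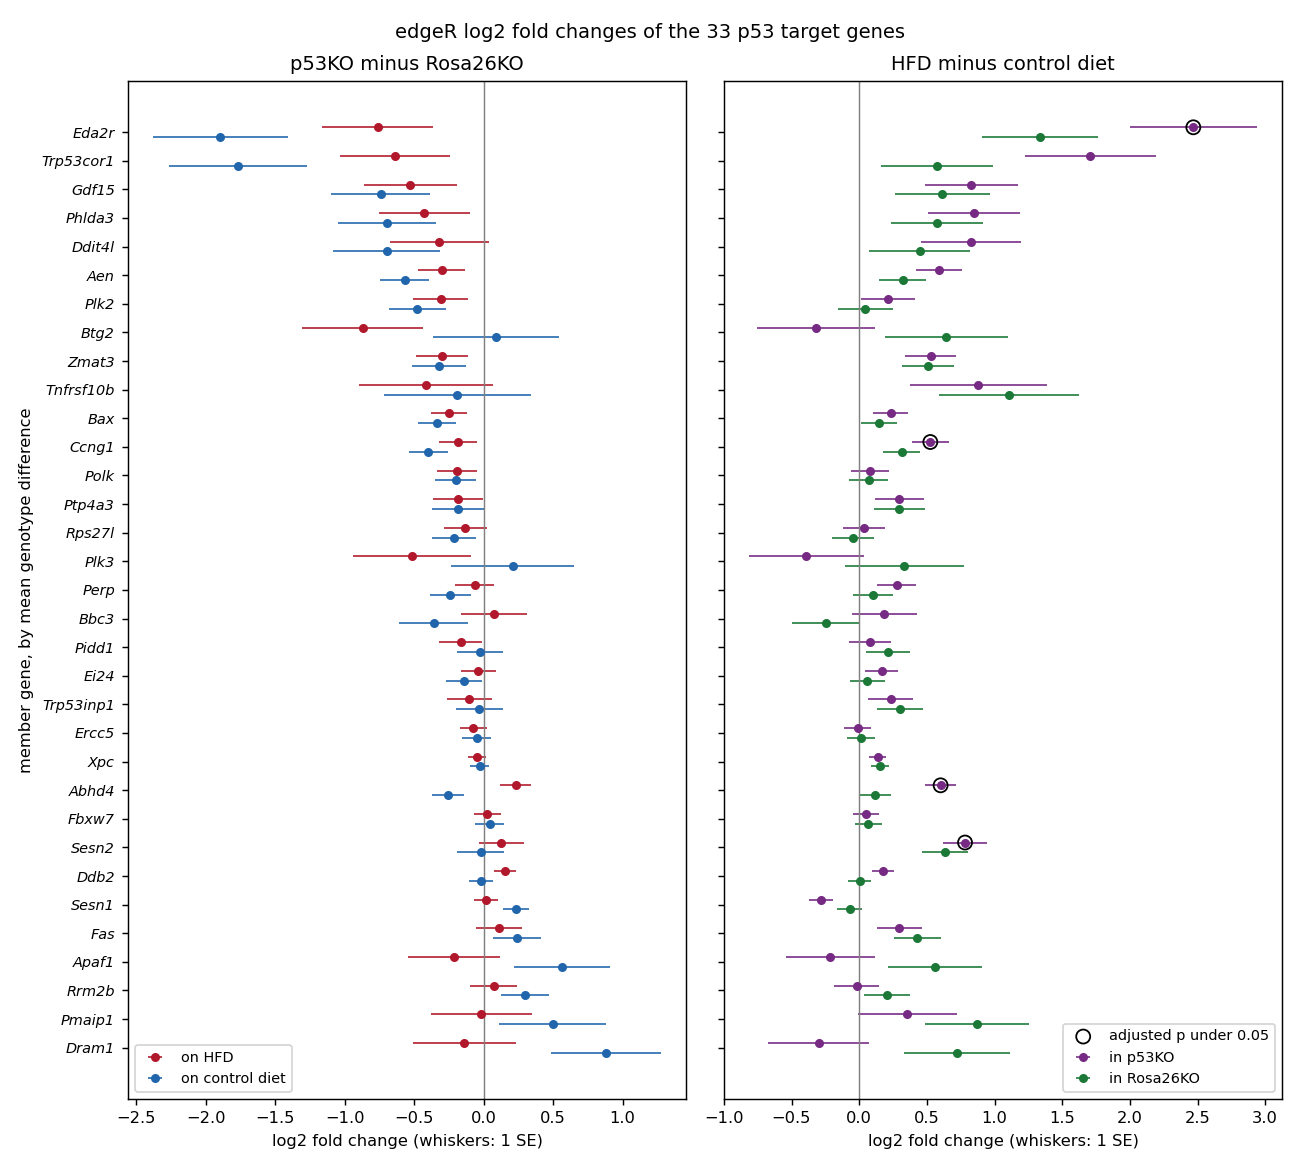
edgeR log2 fold changes (horizontal axis) of the 33 members (vertical axis, ordered by the mean genotype difference), p53KO minus Rosa26KO on the left and HFD minus control diet on the right, with whiskers of 1 SE and open circles at an adjusted p under 0.05. Most genotype points lie left of 0 without a circle, most diet points lie right of 0, and the 4 circles are Eda2r, Ccng1, Abhd4 and Sesn2 in p53KO.

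Among the death receptors, Eda2r, the X-linked receptor for the ectodysplasin form EDA-A2, had the greatest fold change of all members on HFD in each genotype and the greatest genotype difference on the control diet. Its levels in HFD_p53KO replicates 1 to 7 were 3.47, 2.77, 2.59, 2.77, 0.460, 0.847 and 2.35 CPM. In HFD_Rosa26KO they were 5.80, 3.68, 3.05, 3.10, 3.85 and 2.76 CPM. In Control_p53KO they were 0.463, 0.229, 0.692, 0.672, 0.0571 and 0.200 CPM, and in Control_Rosa26KO 0.964, 2.90, 1.86, 1.22, 0.671 and 1.10 CPM. Within p53KO, 6 of 7 HFD libraries lay above every control-diet library, and replicate 5 of HFD_p53KO lay among them. The rise on HFD was 2.47 ± 0.47 in p53KO (edgeR adjusted p = 0.00845), and in Rosa26KO the difference was 1.34 ± 0.43 (edgeR adjusted p = 0.103). In a fit to HFD_p53KO and Control_p53KO alone the p53KO value was 2.46 with an edgeR adjusted p of 0.0504. The genotype difference was -1.89 ± 0.48 on the control diet (edgeR adjusted p = 0.453) and -0.76 ± 0.40 on HFD (edgeR adjusted p = 0.9998). On the control diet 4 of 6 p53KO libraries lay below the Rosa26KO range (exact permutation p = 0.00649, unadjusted among 132 such tests of the members). The median of HFD_p53KO (2.59 CPM) lay above that of Control_Rosa26KO (1.16 CPM), a difference that was not tested.

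Fas, the receptor of Fas ligand, had medians of 25.4 CPM in HFD_p53KO, 23.1 CPM in HFD_Rosa26KO, 17.8 CPM in Control_p53KO and 17.5 CPM in Control_Rosa26KO. Its average difference on HFD was 0.36 ± 0.12 (edgeR adjusted p = 0.0571), just short of the threshold. Control_p53KO replicate 1 stood at 36.3 CPM, above the other 5 libraries of its group (16.8 to 20.7 CPM), and the same library had 52.6 times the median library's sum of 10 neutrophil markers, whose part in the value was not tested. Tnfrsf10b, the mouse TRAIL receptor, differed by 0.99 ± 0.36 over both genotypes (edgeR adjusted p = 0.0848) and ranged from 0.392 to 2.49 CPM within Control_p53KO alone.

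Of the 3 noncoding, RNA-binding and ribosomal members, Trp53cor1 and Zmat3 rose on HFD averaged over both genotypes (4.64% of all genes). Trp53cor1, the long noncoding RNA lincRNA-p21, lies on chromosome 17 in the neighbourhood of Cdkn1a. It was read at 0.720, 0.651, 0.740, 0.640, 0, 0.267 and 0.309 CPM in HFD_p53KO replicates 1 to 7 and at 0.655 to 0.878 CPM in HFD_Rosa26KO (median 0.764). It was read at 0.0571 to 0.224 CPM in Control_p53KO (median 0.127) and at 0.276 to 0.891 CPM in Control_Rosa26KO (median 0.455). The control-diet genotypes did not overlap (exact permutation p = 0.00216, the smallest that 6 against 6 libraries allow), as was the case, with p53KO lower, for 0.17% of all genes. The edgeR difference on the control diet was -1.77 ± 0.50 (edgeR adjusted p = 0.453). The rise on HFD averaged 1.14 ± 0.32 (edgeR adjusted p = 0.0239), with 1.71 ± 0.48 in p53KO (edgeR adjusted p = 0.0532) and 0.58 ± 0.41 in Rosa26KO (edgeR adjusted p = 0.479). No library held more than 21 Trp53cor1 reads.

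Zmat3, a zinc finger RNA-binding protein, had medians of 13.7 CPM in HFD_p53KO, 15.7 CPM in HFD_Rosa26KO, 9.36 CPM in Control_p53KO and 10.6 CPM in Control_Rosa26KO. It rose on HFD by 0.52 ± 0.14 on average (edgeR adjusted p = 0.0168), with near-equal differences of 0.53 ± 0.19 in p53KO (edgeR adjusted p = 0.123) and 0.51 ± 0.19 in Rosa26KO (edgeR adjusted p = 0.179). Its average genotype difference of -0.31 ± 0.13 did not pass (edgeR adjusted p = 0.966). Rps27l, a ribosomal protein paralog, differed by 0.04 ± 0.15 on HFD in p53KO and by -0.05 ± 0.16 in Rosa26KO, both below their SE. Rps27l shares sequence with Rps27, and its counts are uncertain to that extent.

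**Figure D2:**
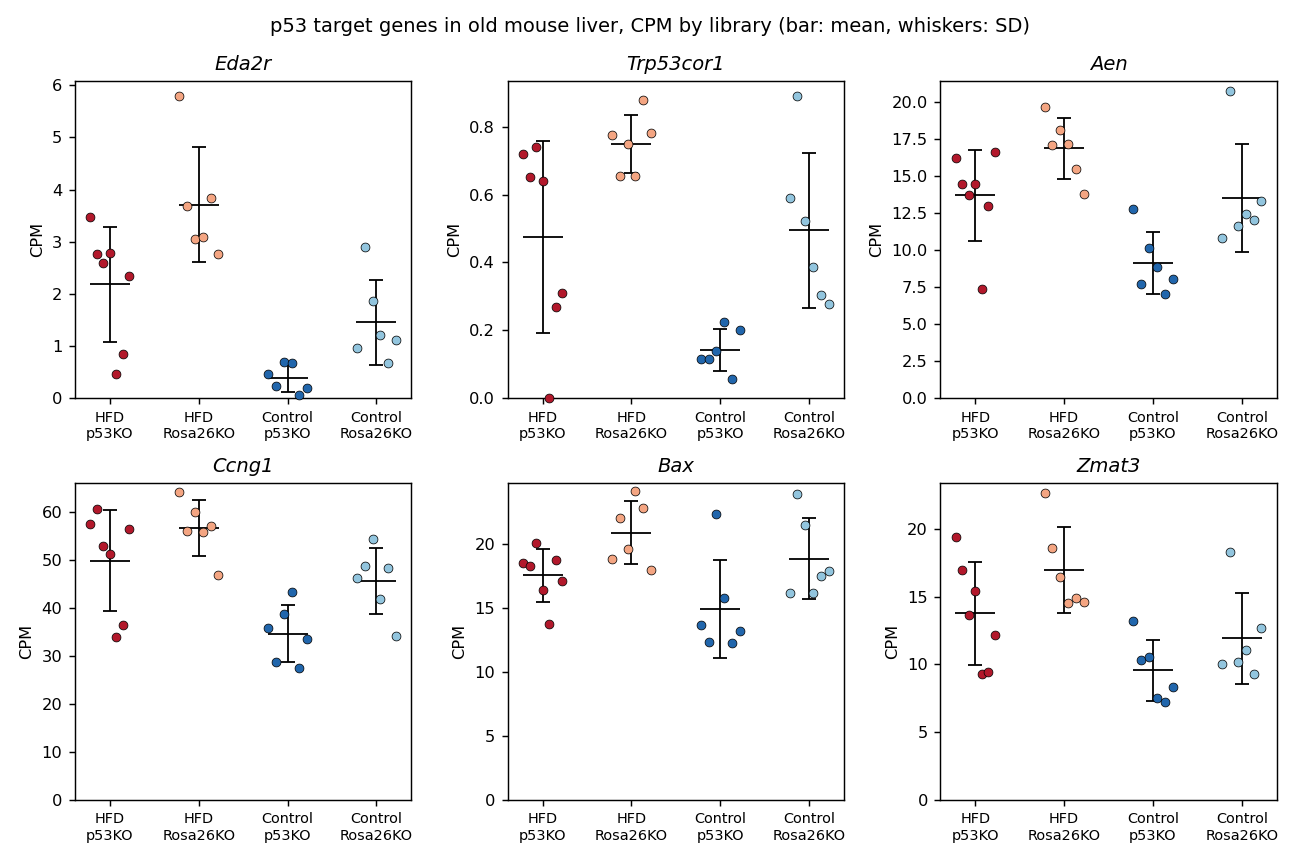
CPM (vertical axis) of 6 members in every library of the 4 groups (horizontal axis), with points in replicate order, a bar at the mean and whiskers of 1 SD (n = 7 in HFD_p53KO and 6 in the other groups). Control_p53KO has the lowest mean in each panel, and replicates 5 and 6 of HFD_p53KO lie below the other libraries of that group for Eda2r and Ccng1.

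The 10 members grouped here under mitochondrial apoptosis also take in a nuclease and an inhibitor of AKT. Of these 10 members, 1 rose on HFD averaged over both genotypes (4.64% of all genes). None was called within a genotype. That member was Aen, a nuclease that digests DNA during apoptosis. Aen stood at 7.36 to 16.6 CPM in HFD_p53KO (median 14.5), at 13.8 to 19.6 CPM in HFD_Rosa26KO (median 17.1), at 7.03 to 12.8 CPM in Control_p53KO (median 8.45) and at 10.8 to 20.7 CPM in Control_Rosa26KO (median 12.2). Its average rise on HFD was 0.45 ± 0.12 (edgeR adjusted p = 0.0205). On the control diet 5 of 6 p53KO libraries lay below the Rosa26KO range, with a difference of -0.57 ± 0.18 (edgeR adjusted p = 0.453). Bax, which forms pores in the outer mitochondrial membrane, had medians of 18.3 CPM in HFD_p53KO, 20.8 CPM in HFD_Rosa26KO, 13.4 CPM in Control_p53KO and 17.7 CPM in Control_Rosa26KO. The Bax genotype difference was nearly the same on both diets, -0.25 ± 0.13 on HFD and -0.34 ± 0.14 on the control diet, and averaged -0.29 ± 0.09 (edgeR adjusted p = 0.966). On the control diet 5 of 6 p53KO libraries lay below the Rosa26KO range for Bax as well, and the exception, Control_p53KO replicate 3, held 22.3 CPM.

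The other apoptotic members were not called in any comparison. Phlda3, an inhibitor of AKT, differed by -0.56 ± 0.24 between genotypes on average (edgeR adjusted p = 0.966) and by 0.71 ± 0.24 on HFD (edgeR adjusted p = 0.0622). The BH3-only gene Pmaip1, which encodes NOXA, did not overlap between diets in Rosa26KO, at 3.16 to 5.07 CPM on HFD (median 3.97) against 1.04 to 3.03 CPM on the control diet (median 2.18). The exact permutation p was 0.00216, the edgeR difference 0.87 ± 0.38 (edgeR adjusted p = 0.244), and 1.2% of all genes were apart in this direction. In p53KO livers Pmaip1 spanned 0.988 to 6.27 CPM on HFD and 1.49 to 7.29 CPM on the control diet, with full overlap. Bbc3, which encodes PUMA, differed between genotypes by 0.07 ± 0.24 on HFD and by -0.36 ± 0.25 on the control diet. Apaf1, the scaffold of the apoptosome, reached 13.1 CPM in Control_p53KO replicate 3 against 2.74 CPM in the lowest library of that group. Ei24, Perp, Pidd1 and Trp53inp1 had diet differences of 0.06 to 0.30 in the separate genotypes, none of them called.

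Among the 6 members that act on the cell cycle and growth, Ccng1 alone was called. It rose on HFD, as did 1.62% of all genes in p53KO and 4.64% in the average. Ccng1 encodes cyclin G1, which feeds back on p53 through Mdm2. It stood at 33.9 to 60.5 CPM in HFD_p53KO (median 52.97) and at 46.8 to 64.3 CPM in HFD_Rosa26KO (median 56.5). On the control diet it stood at 27.5 to 43.4 CPM in p53KO (median 34.7) and at 34.1 to 54.4 CPM in Rosa26KO (median 47.2). Ccng1 rose on HFD by 0.53 ± 0.14 in p53KO (edgeR adjusted p = 0.0370) and by 0.42 ± 0.10 on average (edgeR adjusted p = 0.00810), and differed by 0.31 ± 0.14 in Rosa26KO (edgeR adjusted p = 0.248). The call in p53KO was lost when any of 8 single libraries was left out (HFD_p53KO replicates 1 to 4 and Control_p53KO replicates 1, 2, 5 and 6), with edgeR adjusted p-values of 0.0529 to 0.0942 in those fits. It was also lost in the fit to HFD_p53KO and Control_p53KO alone (edgeR adjusted p = 0.135). Plk2, a stress-induced polo-like kinase, differed by -0.39 ± 0.14 between genotypes (edgeR adjusted p = 0.966) and by 0.13 ± 0.14 between diets (edgeR adjusted p = 0.632). Btg2, an antiproliferative gene that is also an immediate early gene, varied widely within groups, at 18.6 to 57.7 CPM in HFD_p53KO (median 32.8) against 24.5 to 98.0 CPM in HFD_Rosa26KO (median 56.4). Its difference of -0.87 ± 0.44 on HFD did not pass (edgeR adjusted p = 0.9998). Plk3, another polo-like kinase, spanned 19.7 to 94.9 CPM in HFD_p53KO and 33.4 to 131 CPM in HFD_Rosa26KO. Plk3, Ptp4a3 and Fbxw7 were not called in any comparison, and Fbxw7, a ubiquitin ligase subunit, lay between 6.47 and 10.7 CPM in all 25 libraries.

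Of the 6 members of metabolic stress and autophagy, Sesn2 and Abhd4 rose on HFD (1.62% of all genes in p53KO, 4.64% in the average). Sesn2 encodes sestrin 2, a leucine sensor that restrains mTORC1, and was read at 11.9, 14.6, 16.2, 16.4, 9.56, 13.1 and 10.8 CPM in HFD_p53KO replicates 1 to 7. In HFD_Rosa26KO it stood at 8.54 to 14.6 CPM (median 12.1), in Control_p53KO at 5.88 to 9.69 CPM (median 7.56) and in Control_Rosa26KO at 5.62 to 11.4 CPM (median 7.55). The genotypes had nearly equal medians on the control diet, and 6 of 7 HFD libraries of p53KO lay above all of its control-diet libraries. Sesn2 rose by 0.78 ± 0.16 in p53KO (edgeR adjusted p = 0.0115) and by 0.71 ± 0.12 on average (edgeR adjusted p = 0.000581). In Rosa26KO the difference was 0.63 ± 0.17 with an edgeR adjusted p of 0.0534, which fell under the threshold when any of 5 single libraries was left out, to 0.0144 without Control_Rosa26KO replicate 2, 0.0320 without HFD_Rosa26KO replicate 6, 0.0395 without Control_p53KO replicate 3, 0.0423 without HFD_p53KO replicate 7 and 0.0462 without HFD_p53KO replicate 5. Its average genotype difference was 0.05 ± 0.12 (edgeR adjusted p = 0.980).

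Abhd4, a hydrolase of N-acyl phospholipid metabolism, was the member whose diet response differed most between genotypes relative to its error. It stood at 59.3 to 86.4 CPM in HFD_p53KO (median 64.4) and at 45.4 to 67.1 CPM in HFD_Rosa26KO (median 58.8). On the control diet it stood at 36.4 to 52.0 CPM in p53KO (median 46.4) and at 47.9 to 70.0 CPM in Rosa26KO (median 51.2). The diets did not overlap in p53KO (exact permutation p = 0.00117, the smallest that 7 against 6 libraries allow; 0.644% of all genes were apart in this direction). Abhd4 rose on HFD by 0.60 ± 0.11 in p53KO (edgeR adjusted p = 0.00845), and differed by 0.12 ± 0.12 in Rosa26KO (edgeR adjusted p = 0.631). The test of the difference between these responses gave 0.49 ± 0.16 with an unadjusted edgeR p of 0.0066 and an edgeR adjusted p of 0.560. The genotype difference was 0.23 ± 0.11 on HFD and -0.26 ± 0.12 on the control diet, opposite in sign and not called in either diet.

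The remaining members of this role were not called. Gdf15, a secreted stress hormone of the TGF-beta family, had medians of 14.8 CPM in HFD_p53KO, 22.8 CPM in HFD_Rosa26KO, 9.41 CPM in Control_p53KO and 10.8 CPM in Control_Rosa26KO. On HFD 5 of 7 p53KO libraries lay below the Rosa26KO range of Gdf15, with a difference of -0.53 ± 0.33 (edgeR adjusted p = 0.9998). Sesn1, the sestrin paralog of Sesn2, had the opposite sign on HFD in p53KO, -0.29 ± 0.09 (edgeR adjusted p = 0.0739). Dram1, a lysosomal regulator of autophagy, differed by 0.88 ± 0.39 between genotypes on the control diet (edgeR adjusted p = 0.474), with 12.1 CPM in Control_p53KO replicate 3 and a median of 3.04 CPM in that group. The same library had the highest sum of its group for Kupffer cell markers (4025 CPM, group median 779), and the interaction of Dram1 was -0.51 without it and -1.02 with it. Ddit4l, an inhibitor of mTORC1 signalling, differed by 0.64 ± 0.26 between diets (edgeR adjusted p = 0.131).

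Of the 5 members of DNA repair and nucleotide supply, Xpc was the single call, in the diet average (4.64% of all genes rose). Xpc, the damage sensor of nucleotide excision repair, was read at 22.8 to 26.7 CPM in HFD_p53KO (median 23.8), 23.3 to 28.1 CPM in HFD_Rosa26KO (median 25.2), 19.7 to 25.4 CPM in Control_p53KO (median 22.4) and 20.9 to 24.5 CPM in Control_Rosa26KO (median 23.0). The groups overlapped, and the average rise on HFD was 0.15 ± 0.05 (edgeR adjusted p = 0.0456). The call was lost in 19 of the 25 fits that each left out a library, with edgeR adjusted p-values up to 0.0922. Ddb2, Ercc5, Polk and Rrm2b, which act in damage recognition, excision, translesion synthesis and dNTP supply, were not called, and Ercc5 differed by 0.00 ± 0.07 between diets.

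**Figure D3:**
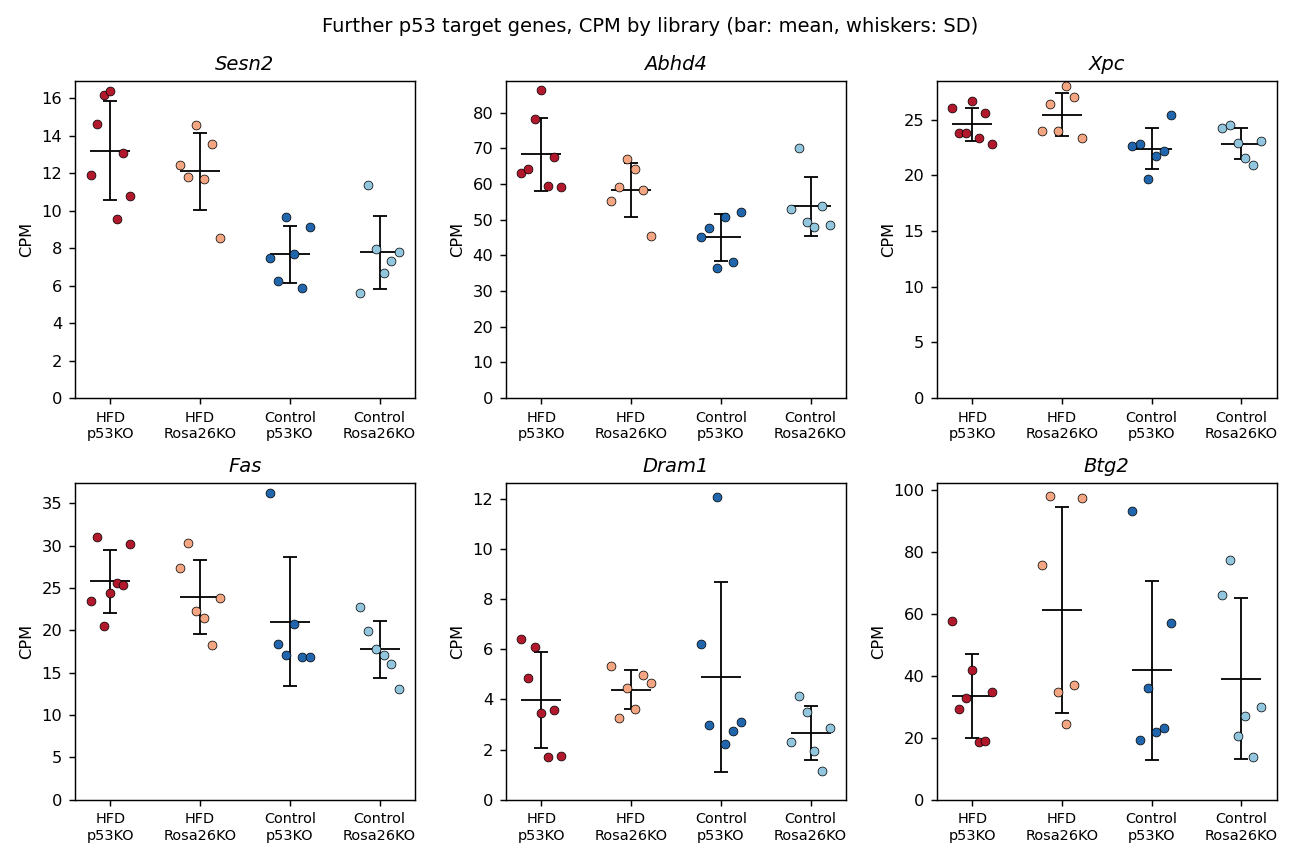
CPM (vertical axis) of 6 further members in every library of the 4 groups (horizontal axis), with points in replicate order, a bar at the mean and whiskers of 1 SD (n = 7 in HFD_p53KO and 6 in the other groups). Sesn2 and Abhd4 lie higher on HFD in p53KO, while Fas and Dram1 each have a single high library in Control_p53KO (36.3 and 12.1 CPM).

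The interaction, in which the diet difference of Rosa26KO is subtracted from that of p53KO, gave no call among the members or among all genes (0%), and 1 member, Abhd4, had an unadjusted edgeR p under 0.05 (8.64% of all genes). DESeq2 and limma voom called no member either. At an unadjusted p under 0.05 they had 1 and 2 members (1483 of 19492 and 924 of 14133 genes tested). Eda2r and Trp53cor1 had the highest interaction values, 1.13 ± 0.62 (edgeR adjusted p = 0.604) and 1.13 ± 0.63 (edgeR adjusted p = 0.612), and Dram1 had the lowest, -1.02 ± 0.54 (edgeR adjusted p = 0.592). The 4 calls in p53KO and their absence in Rosa26KO are thus not shown to be a difference between the genotypes.

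The counts of calls moved with single libraries. Control_Rosa26KO replicate 2 was the highest of its group for 21 of the 33 members. How often this library was the highest over all genes was not counted. Its sum of 10 cell cycle markers was 106 CPM, against 11.6 to 22.1 CPM in the other 5 libraries of its group, and its sum of 9 stellate markers (904 CPM) was the highest of that group. Without it, 4 members were called on HFD in Rosa26KO (0 with it) and 14 in the average (8 with it). Shares of all genes called in fits without a single library are not given here, so such counts are not set against all genes. Without any of Control_p53KO replicate 3, HFD_Rosa26KO replicate 6, HFD_p53KO replicate 5 or HFD_p53KO replicate 7, 1 member was called in Rosa26KO, in each case Sesn2. HFD_p53KO replicates 5, 6 and 7 lay below the whole HFD_Rosa26KO range for 15, 19 and 14 members, against 3 to 7 members for replicates 1 to 4. No such count was made over all genes, so these numbers are not shown to be particular to the members. The same 3 libraries, the last of the group by library name, had cell cycle sums of 16.3, 22.8 and 14.3 CPM, against 43.1 to 103 CPM in replicates 1 to 4. Their sums of 15 circadian clock genes were 704, 567 and 763 CPM, against 307 to 447 CPM. The clock sums of replicates 5 and 6 also lay above those of replicates 1 and 2 in the other groups. They were 565 and 596 against 446 and 373 CPM in Control_Rosa26KO, and 645 and 503 against 333 and 464 CPM in Control_p53KO. In HFD_Rosa26KO they were 543 and 478 against 364 and 374 CPM. Without HFD_p53KO replicate 5, 7 members were called on HFD in p53KO (4 with it). HFD_p53KO replicate 7 also had the lowest sums of its group for Kupffer (422 CPM, median 739), sinusoidal endothelial (136 CPM, median 248) and stellate (186 CPM, median 493) markers. The part of these marker sums in the member values was not tested.

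**Figure D4:**
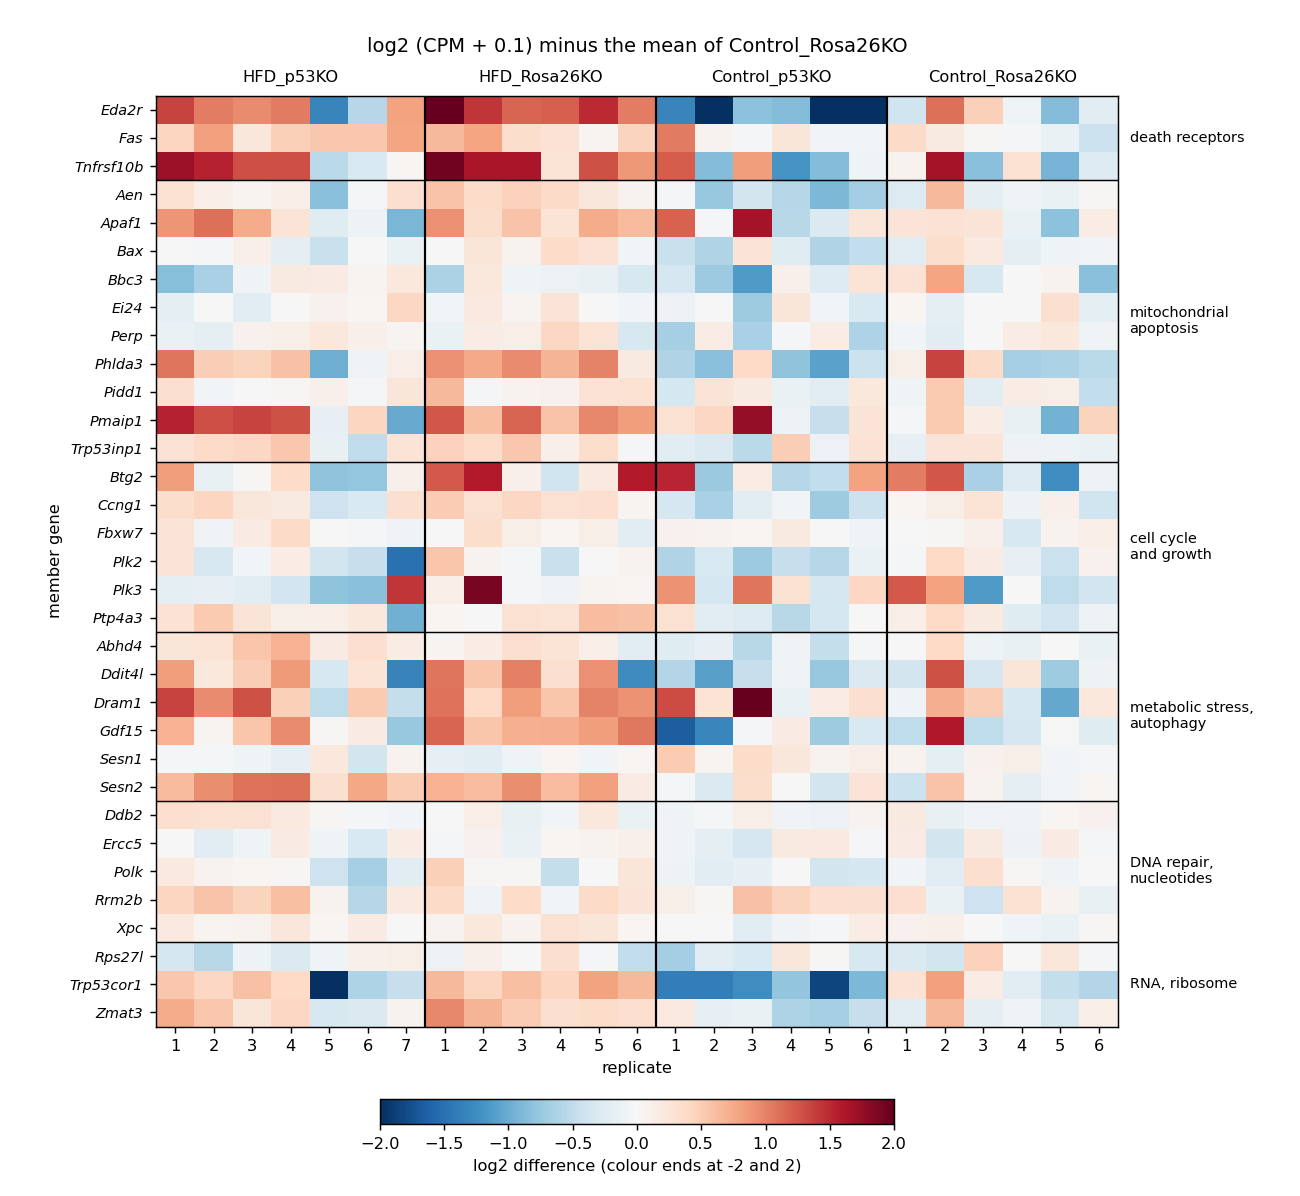
Colour gives log2 (CPM + 0.1) of each of the 33 members (rows, grouped by role) in each of the 25 libraries (columns, replicate numbers within group) minus the mean of Control_Rosa26KO. Replicates 5 and 6 of HFD_p53KO are bluer or paler than replicates 1 to 4 for Eda2r, Tnfrsf10b and Pmaip1, and Control_Rosa26KO replicate 2 is redder than the rest of its group for 21 members. The 21 members have no count over all genes beside them.

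The library names are consecutive, from 1941 to 1965, and the order of the groups repeats along them. They were divided here into 3 runs by that order, which hold replicates 1 and 2, 3 and 4, and 5 to 7 of the groups. The labels name no such runs, and what else distinguishes them is not given in the sources used here. Within runs 1, 2 and 3, Eda2r differed on HFD in p53KO by 3.14, 1.97 and 3.12, and Sesn2 by 0.94, 0.91 and 0.57. Between genotypes on the control diet Eda2r differed by -2.47, -1.18 and -2.69 and Trp53cor1 by -2.63, -1.33 and -1.09. These differences kept their sign in every run, while no member was called in any single run. The members shown had among the smallest p-values in the fit to all libraries, of which each run is part. The shared sign is therefore no independent check. Trp53cor1 on HFD had genotype differences of -0.06 and -0.03 in runs 1 and 2 and -2.09 in run 3. Of the 33 members, on HFD 24, 16 and 23 were lower in p53KO in runs 1, 2 and 3, with medians of -0.14, 0.03 and -0.29. The counts on the control diet were 26, 19 and 17, with medians of -0.28, -0.04 and -0.08, and in the average 25, 18 and 25 members, with medians of -0.20, -0.02 and -0.25. The median diet difference of the members was above 0 in each run, at 0.38, 0.35 and 0.18 in p53KO and 0.15, 0.29 and 0.38 in Rosa26KO. No values of all genes within single runs stand beside these counts and medians. They are therefore not shown to be particular to the members.

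Other genes of the pathway were read from 2 lists of textbook regulators and targets. Of 19 regulators of p53, among them its kinases, acetylases and ubiquitin ligases, 17 were tested and none was called between genotypes. Mdm2 alone was called on HFD (0.21 ± 0.06 averaged over both genotypes, edgeR adjusted p = 0.0201), where 4.64% of all genes rose. Of 19 further p53 targets 18 were tested. Between genotypes none was called, and 10 of 18 were lower in p53KO on HFD (47.2% of all genes), 15 of 18 on the control diet (48.1%) and 12 of 18 in the average (46.7%), with median log2 fold changes of -0.03, -0.17 and -0.12. On HFD, averaged over both genotypes, 3 rose (4.64% of all genes) and 2 fell (5.07% of all genes). Cdkn1a rose by 1.16 ± 0.37 (edgeR adjusted p = 0.0480), Mdm2 as above, and 9030617O03Rik, the older symbol of the mitochondrial D-glutamate cyclase Dglucy, by 0.66 ± 0.11 (edgeR adjusted p = 0.000853). Pltp, the phospholipid transfer protein of plasma, fell by 1.02 ± 0.19 (edgeR adjusted p = 0.00167), and the glutaminase Gls2 fell by 0.69 ± 0.20 (edgeR adjusted p = 0.0260). Cdkn1a stood at 7.52 to 89.7 CPM in HFD_p53KO (median 37.1), at 30.0 to 93.2 CPM in HFD_Rosa26KO (median 53.03), at 3.54 to 25.6 CPM in Control_p53KO (median 11.9) and at 16.2 to 88.9 CPM in Control_Rosa26KO (median 28.2). Its lowest library on HFD was replicate 5 of HFD_p53KO, which was also the lowest for Eda2r and Trp53cor1.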

How the data were processed

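The authors deposited 1 table of raw read counts per gene symbol for 25 libraries. Per the labels' protocols, polyA RNA of frozen liver was sequenced as paired reads of 75 bases. Per the submitters' processing notes, STAR, HOMER and the builds GRCm38 and mm10 were used. Their versions, the annotation and the counted strand are not stated in these sources. Total counts were 16324283 to 21501281 per library.

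Genes were kept by filterByExpr (minimum count 10, minimum total 15) in edgeR 4.0.16, scaled by TMM, and fitted with robust quasi-likelihood to all 25 libraries with 1 mean per group. Benjamini-Hochberg adjustment of the two-sided p-values ran over 14133 genes in each of 7 comparisons, with a threshold of 0.05. SE is the absolute log2 fold change over the root of F. CPM of the members was also compared by two-sided exact permutation tests (132 tests, not adjusted). Full statistics are given for 12 members picked by rule (the 4 smallest p of each comparison, up to 12 members); other members were named by role after their values were seen. Genes not found under their symbol were looked up by older symbols, which placed 2, and 2 list genes could not be placed. Positions are from GENCODE M21 on GRCm38. Alternatives used RLE scaling, no filter, DESeq2 1.42.0, limma 3.58.1 voom with sample quality weights, a term for replicate number or library run, the compared groups only, and libraries left out. The procedure was tested on simulated data. The members, lists and tests were chosen with earlier results of these data known. R 4.3.3 and Python 3.11.15 were used.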

Additional observations from a re-analysis of the deposited data

Results flagged for a closer look

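Among the 12 members named by rule, 48 groups of libraries were examined for a library far from the rest of its group, and 6 were found, where chance gives about 1 in 20. Eda2r in HFD_Rosa26KO replicate 1 was at 5.80 CPM, above the others of its group at 2.76 to 3.85 CPM. Aen in HFD_p53KO replicate 5 was at 7.36 CPM, below the others at 13 to 16.6 CPM. Aen in Control_Rosa26KO replicate 2 was at 20.7 CPM, above the others at 10.8 to 13.3 CPM, and Abhd4 in the same library was at 70.0 CPM, above the others at 47.9 to 53.8 CPM. Bax in Control_p53KO replicate 3 was at 22.3 CPM, above the others at 12.3 to 15.8 CPM. Fas in Control_p53KO replicate 1 was at 36.3 CPM, above the others at 16.8 to 20.7 CPM.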

How the results depend on the processing

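No member was called between genotypes, or in the interaction, under any setting tried. The percentages that follow are the shares of all genes called under the same setting. No share is given for the fits that left out single libraries. On HFD in p53KO, 4 members were called (2.87%). DESeq2 gave 7 (6.07%), limma voom 12 (15.5%), the library run term 7 (4.48%) and the compared groups alone 2 (0.878%). Leaving out single libraries gave 3 to 7. On HFD in Rosa26KO, 0 were called (1.51%). DESeq2 gave 2 (3.97%), limma voom 14 (21.5%), the replicate block 2 (3.88%), the library run term 3 (3.13%) and the compared groups alone 3 (4.77%). Leaving out the pair of libraries high in neutrophil markers gave 1 (2.31%), and leaving out single libraries 0 to 4. In the diet average, 8 were called (9.71%). There limma voom gave 20 (35.4%), the replicate block 14 (16.1%), and leaving out single libraries 7 to 14. The greater member counts under limma voom thus went with more calls over all genes. Xpc lost its call in that average under RLE scaling and without the filter. Fits to run 1, 2 or 3 alone, added after seeing the data, gave 0 calls in each of these 3 diet comparisons, with fewer libraries. Over the 12 members named by rule, 29 of 252 log2 fold changes from a single run had the opposite sign to the value from all libraries. Where the value from all libraries was called, 0 of 36 did. That count is no independent check, since each run is part of the value from all libraries and the 36 were picked by it. The 29 include Btg2 between genotypes on HFD in run 2 (0.34) and the interaction of Trp53cor1 in run 3 (-0.999). The cause was not tested. Replicate numbers gave no uniform pairing of the samples, with 17 of 36 same-number pairs correlated over 0.1 (-0.546 to 0.566) and 9 best with their own number. Shared variation by replicate number is not excluded by these values. The replicate block called 16.1% of all genes in the diet average, against 9.71% without it. Scarce members such as Trp53cor1 and Eda2r rest on few reads per library, which limits their precision.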
